A study of Mus musculus with 6 samples.

Results

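The insulin-like growth factor binding proteins (IGFBPs) are encoded by Igfbp1 to Igfbp7, and these 7 genes were taken from a liver RNA-seq series in which 18444 genes were listed in at least 1 library. The genes were found by symbol in the 6 deposited gene tables. The family had been selected on expression values of these same libraries, so every level and ratio below is a description and none is an independent test. All 7 were listed, Igfbp6 in 5 of the 6 tables and the other genes in all 6.

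Livers came from male C57BL/6 mice (C57BL/6J in the study's methods) labelled as 6 to 8 weeks of age, and each condition had 1 library. The methods give 16 weeks of diet or 6 weeks of injections, so this is taken as the age at the start. The age at collection is not stated in the sources used here. In the diet model the groups were a standard diet (SD, labelled as chow control), a high fat diet (HFD, labelled as NASH, that is nonalcoholic steatohepatitis) and HFD plus JT003, an adiponectin-derived peptide agonist of the receptors AdipoR1 and AdipoR2. The study's methods give 16 weeks of diet with 4 weeks of JT003 at 500 ug/kg, injected daily into the peritoneum. They also describe a NASH model in which HFD was combined near the end with a methionine and choline deficient diet. The study shows those mice as separate groups and reports RNA-seq on livers of HFD fed mice. The HFD livers are therefore taken here as HFD only. Whether mice without JT003 received a vehicle injection is not given in the sources used here. In the toxin model the groups were corn oil, carbon tetrachloride (CCl4) and CCl4 plus JT003. There the methods give 6 weeks of injections into the peritoneum, with 20% CCl4 in corn oil at 5 ml/kg every 3 days, and JT003 at 500 ug/kg for 3 weeks. All of the toxin model mice thus received corn oil, and no library combined JT003 with SD or with corn oil alone. Whether a library held RNA of 1 mouse or of several is not given either. For the end of the experiments, the methods give a fast of 8 h before the mice were killed.

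IGFBPs are secreted proteins that bind the growth factors IGF1 and IGF2, lengthen their life in blood and control their access to the IGF1 receptor. The liver makes most circulating IGF1, which travels with IGFBP3 and the acid labile subunit, encoded by Igfals. IGFBP1 and IGFBP2 are hepatocyte products whose genes are repressed by insulin and induced by fasting, IGFBP4 is cut by the protease pappalysin, and IGFBP5, IGFBP6 and IGFBP7 are made mostly by mesenchymal, endothelial and other non-parenchymal cells.

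Library totals lay between 19374236 and 20184557 expected counts, with 16083 to 16738 genes listed. Alb (albumin) was at 56570 to 71740 CPM (counts scaled to a common library size), and all 8 hepatocyte markers had reads in each library, as the liver label requires. The corn oil library stood apart in its macrophage markers, with a summed FPKM (fragments per kilobase of transcript, scaled to library size) of 33.96 over 8 genes against 127.5 to 204.5 in the other libraries. The CCl4 library held 64.27 FPKM over 6 mitosis genes against 0.78 to 4.7 in the other libraries. In bulk tissue, fewer cells of a type and less RNA per cell cannot be told apart.

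The bases just upstream of 4 members are shown because these genes carried the calls below. Igfbp1 and Igfbp2 were lowest in the HFD library, and Igfbp5 and Igfbp6 were lowest in the SD and HFD libraries. The sequences are from RefSeq on GRCm38.p6, a later mouse build than the mm9 named in the submitters' processing notes, and all 7 members matched that table by symbol. Each run gives the 250 bases before the start site from 5′ to 3′ on the gene's strand. Capitals mark the motifs that were searched on both strands, which were CAAAACA (the core of the insulin response element), GTAAACA (a forkhead core), TATAAA (the TATA box), GGGCGG (the GC box) and CACGTG (an E-box), none of which overlapped another. Igfbp1 lies at chr11:7197537-7197786 on the plus strand, Igfbp2 (the first of 2 listed starts) at chr1:72824230-72824479 on the plus strand, Igfbp5 at chr1:72874866-72875115 on the minus strand and Igfbp6 at chr15:102143936-102144185 on the plus strand.
Igfbp1: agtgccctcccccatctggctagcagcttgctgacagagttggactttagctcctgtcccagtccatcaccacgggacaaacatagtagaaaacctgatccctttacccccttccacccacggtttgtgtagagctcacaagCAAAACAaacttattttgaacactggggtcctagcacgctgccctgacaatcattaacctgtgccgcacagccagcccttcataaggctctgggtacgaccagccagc
Igfbp2: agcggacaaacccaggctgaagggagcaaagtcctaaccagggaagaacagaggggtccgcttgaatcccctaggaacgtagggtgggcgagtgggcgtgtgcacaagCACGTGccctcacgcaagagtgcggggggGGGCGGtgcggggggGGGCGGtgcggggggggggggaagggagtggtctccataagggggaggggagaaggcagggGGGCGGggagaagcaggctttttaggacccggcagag
Igfbp5: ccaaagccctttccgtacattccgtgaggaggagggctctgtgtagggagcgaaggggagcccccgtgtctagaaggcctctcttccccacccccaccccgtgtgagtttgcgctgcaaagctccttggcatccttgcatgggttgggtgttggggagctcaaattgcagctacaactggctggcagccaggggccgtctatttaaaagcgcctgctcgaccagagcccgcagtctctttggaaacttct
Igfbp6: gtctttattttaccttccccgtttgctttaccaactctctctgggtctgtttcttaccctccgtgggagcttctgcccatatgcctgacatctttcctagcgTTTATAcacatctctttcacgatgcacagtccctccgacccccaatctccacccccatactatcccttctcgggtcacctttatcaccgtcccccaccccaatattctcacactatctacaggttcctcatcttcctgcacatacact

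CAAAACA stood in the Igfbp1 run, its first base 108 bases before the start, and 5.56% of the 32851 promoters in the table held these letters in the same window. The Igfbp2 run had 3 copies of GGGCGG, held by 32.7% of all promoters, and 1 CACGTG, held by 6.02%. TATAAA was found in the Igfbp6 run on the minus strand and in 12.4% of promoters. GTAAACA, in 3.17% of promoters, was in none of the 4 runs, and the Igfbp5 run held none of the 5 motifs. A match describes letters only. In the same table Igfbp1 and Igfbp3 are neighbours on chromosome 11, and Igfbp2 and Igfbp5 are neighbours on chromosome 1.

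Per unit of length, Igfbp2 and Igfbp4 were the most abundant members in all 6 libraries. The deposited FPKM of Igfbp4 was 721.5 in SD, 856.3 in HFD, 973.8 in HFD plus JT003, 839.6 with corn oil, 647.5 with CCl4 and 764.4 with CCl4 plus JT003. That of Igfbp2 was 752.3 in SD, 198.7 in HFD, 418.3 in HFD plus JT003, 820.1 with corn oil, 1038 with CCl4 and 1088 with CCl4 plus JT003. Igfbp2 was thus far lower in HFD than elsewhere while Igfbp4 kept within a narrow band. Igfbp1 followed with 173.7 FPKM in SD, 19.9 in HFD, 49.4 in HFD plus JT003, 76.8 with corn oil, 122.4 with CCl4 and 72.7 with CCl4 plus JT003. Igfbp1 was the third member in FPKM in 4 libraries, whereas in HFD (75.2 against 19.9) and in HFD plus JT003 (62.2 against 49.4) Igfbp7 lay above it. Igfbp7 ranged from 49.1 FPKM in corn oil to 75.2 in HFD and Igfbp3 from 4.9 in HFD plus JT003 to 10.7 in CCl4 plus JT003. Igfbp5 (0.48 to 4.9 FPKM) and Igfbp6 (not listed in HFD, 0.23 to 2.26 elsewhere) were the least abundant, and in every library Igfbp6 was below Igfbp5 except in CCl4, where Igfbp6 was at 2.26 and Igfbp5 at 1.78.

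**Figure D1:**
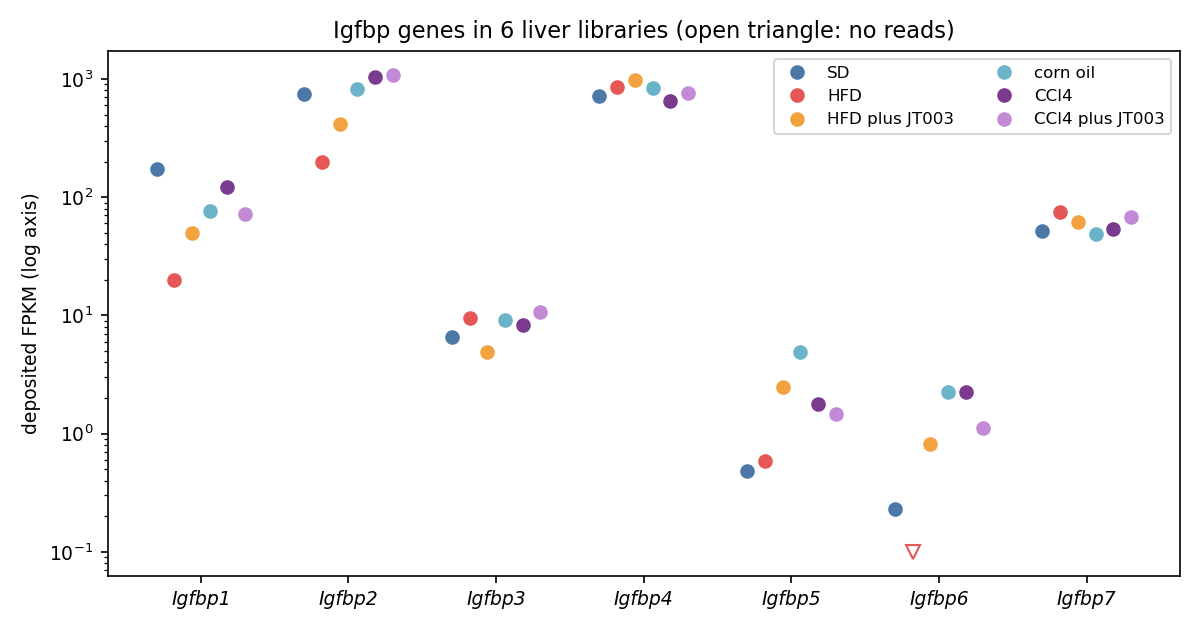
Deposited FPKM of the 7 Igfbp genes (log axis) with 1 point per library, coloured by condition, and an open triangle at the lower edge where no reads were listed. Igfbp1 and Igfbp2 are lowest in HFD (19.9 and 198.7 FPKM), and Igfbp5 and Igfbp6 are low in both SD and HFD.

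The makeup of the family differed most in HFD. Summed over the 7 genes, FPKM was 1706 in SD, 1160.2 in HFD, 1512 in HFD plus JT003, 1802 with corn oil, 1874 with CCl4 and 2006.5 with CCl4 plus JT003. HFD had the lowest sum, and CCl4 plus JT003 had the highest. Igfbp4 made up 73.8% of the family FPKM in HFD and 64.4% in HFD plus JT003, against 34.6% to 46.6% in the other 4 libraries. The Igfbp4 to Igfbp2 ratio was 0.959 in SD, 4.31 in HFD, 2.33 in HFD plus JT003, 1.02 with corn oil, 0.624 with CCl4 and 0.702 with CCl4 plus JT003. Igfbp1, Igfbp2 and Igfbp4 together held 92.7% to 96.6% of the family FPKM in each library.

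To ask how the family differed between HFD and SD livers, log2 ratios of expected counts were taken after TMM scaling, which sets library sizes by the bulk of genes, with a prior count of 2. A gene is called here when the ratio is at least 2-fold and the higher library has at least 10 counts. A condition has a single library, so no replicate error can be given, no test was run, and the 95% intervals (Clopper-Pearson) cover counting error only. Igfbp1 had 5316 counts in SD and 596 in HFD, and was 9.47-fold lower in HFD (log2 ratio -3.24, interval -3.37 to -3.13). Igfbp2 had 17495 counts in SD and 4539 in HFD, a 4.11-fold lower level (-2.04, -2.09 to -1.99). Both insulin-repressed members were therefore lower in the HFD library by more than the call. The other members with enough counts stayed under it, at 0.41 for Igfbp3 (328 and 464 counts), 0.12 for Igfbp4 (30218 and 35090), 0.15 for Igfbp5 (58 and 69) and 0.43 for Igfbp7 (1147 and 1645). For Igfbp5 the counting interval, -0.37 to 0.69, included 0. Igfbp6 had 6 counts in SD and none in HFD, which against a floor of 3 counts per library is at least 2.13-fold lower, a bound that leaves out the counting error of the 6 (the counting interval reached up to -0.33), and it had too few counts to be called. In all, 2 of 7 members were called, both lower, while 10.1% of 13335 genes were called in either direction and 4.15% lower. The members were selected on this contrast, so nothing is read from their share.

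Addition of JT003 to HFD was compared with HFD alone to ask how treated livers differed. Igfbp1 had 596 counts in HFD and 1488 in HFD plus JT003, 2.45-fold higher with JT003 (1.30, 1.16 to 1.44). Igfbp2 had 4539 and 9965 counts, 2.16-fold higher (1.11, 1.06 to 1.16). Both remained below SD, Igfbp1 by 3.86-fold (-1.95, -2.04 to -1.87) and Igfbp2 by 1.90-fold (-0.93, -0.96 to -0.89). The JT003 library thus lay between HFD and SD for both genes. Igfbp5, a binding protein known from smooth muscle, bone and fibrotic tissue, had 69 counts in HFD and 291 in HFD plus JT003, 4.06-fold higher (2.02, 1.67 to 2.45). Igfbp6, a binding protein that prefers IGF2, went from no reads in HFD to 21 counts in HFD plus JT003, at least 6.89-fold higher against the floor of 3 counts, a bound that leaves out the counting error of the 21 (the counting interval began at 2.36). In HFD plus JT003 both were also above SD, Igfbp5 by 4.52-fold (2.18, 1.80 to 2.65) and Igfbp6 by 2.69-fold on 6 and 21 counts (1.43, 0.34 to 3.29). These low-abundance members did not lie between HFD and SD.

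Igfbp3 had 464 counts in HFD and 240 in HFD plus JT003 and fell just short of the call limit (-0.97, -1.21 to -0.75), while Igfbp2 at 1.11 was the nearest to the limit of those called. Igfbp4 (35090 and 40107 counts, 0.17) and Igfbp7 (1645 and 1365, -0.29) were well inside the limit. Of 7 members 4 were called, all higher with JT003, while 4.71% of 13453 genes were called in either direction and 2.35% higher. Against SD, 3 of 7 were called in HFD plus JT003 (Igfbp5 and Igfbp6 higher, Igfbp1 lower), where 11.1% of genes were called, 6.57% higher and 4.56% lower. The comparisons with HFD and with SD share libraries, so these counts are not separate pieces of evidence.

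**Figure D2:**
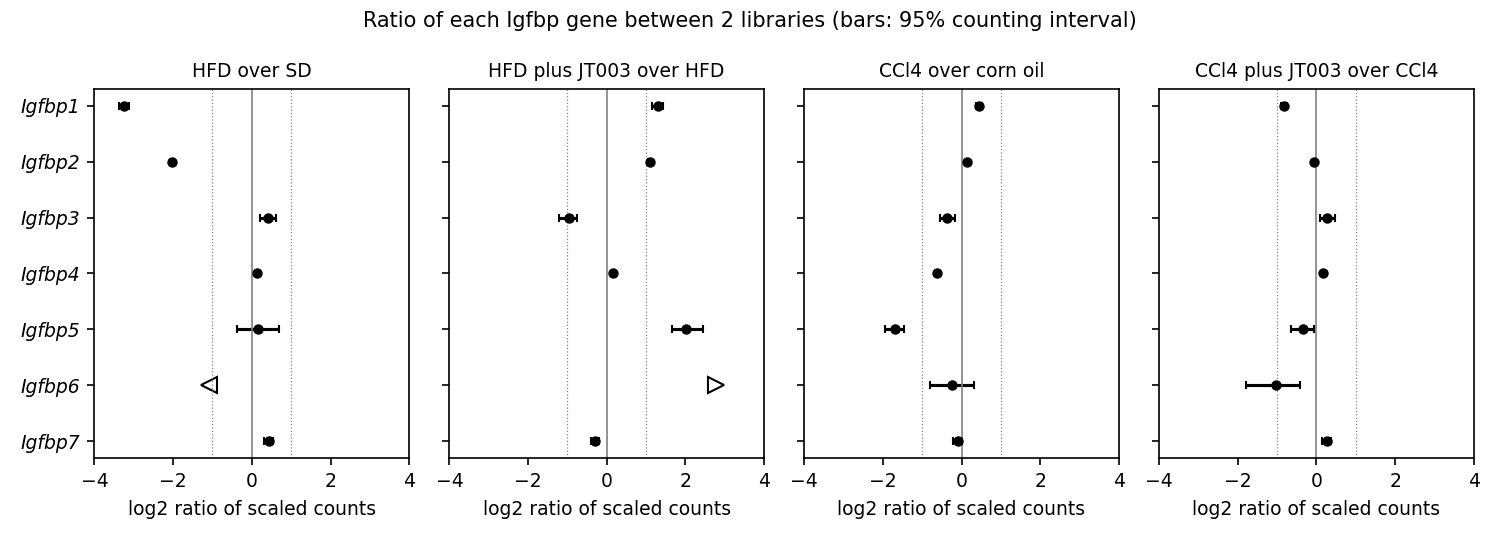
Log2 ratio of scaled expected counts for each Igfbp gene in 4 comparisons of 2 libraries, with 95% counting intervals as bars, dotted lines at the 2-fold limit and open triangles for Igfbp6 bounds against a library with no reads. Igfbp1 and Igfbp2 lie left of the limit for HFD over SD and right of it for HFD plus JT003 over HFD, whereas in the CCl4 panels only Igfbp5 and Igfbp6 pass the limit.

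In the toxin model, CCl4 was compared with its corn oil control. Igfbp5 had 567 counts in corn oil and 213 in CCl4, 3.23-fold lower in CCl4 (-1.69, -1.94 to -1.47). It was the only member called in this comparison, in which 13.7% of 13602 genes were called and 4.91% were lower. Igfbp4 had 33917 and 27086 counts (-0.61, -0.64 to -0.59), below the call, with an interval that excluded 0. Igfbp1 had 2266 counts in corn oil and 3742 in CCl4 (0.44, 0.36 to 0.51), and Igfbp2 had 17793 and 23862 (0.14, 0.11 to 0.16). The ratios of the other members were -0.36 for Igfbp3, -0.23 for Igfbp6 and -0.10 for Igfbp7. Those of Igfbp6 (57 and 59 counts, -0.79 to 0.31) and Igfbp7 (1058 and 1204 counts, -0.22 to 0.02) had counting intervals that included 0, and that of Igfbp7 changed sign under scaling by total counts (0.13).

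CCl4 plus JT003 was then set against CCl4. Igfbp6 had 59 counts in CCl4 and 28 in CCl4 plus JT003, 2.05-fold lower (-1.03, -1.79 to -0.41), and its interval crossed the call limit. No other member was called, while 8.88% of 13785 genes were called and 4.24% were lower. Igfbp1 had 3742 counts in CCl4 and 2139 in CCl4 plus JT003 (-0.82, -0.90 to -0.74), 1.76-fold lower. Igfbp5 had 213 and 168 counts (-0.35, -0.65 to -0.06). Igfbp2 (23862 and 22946 counts, -0.07), Igfbp3 (417 and 511, 0.28), Igfbp4 (27086 and 30765, 0.17) and Igfbp7 (1204 and 1452, 0.26) were inside the limit, and the small difference of Igfbp2 vanished under scaling by total counts (0.00). Against corn oil, CCl4 plus JT003 was lower in Igfbp5 (-2.04, -2.31 to -1.80) and in Igfbp6 (-1.26, -2.03 to -0.65), 2 of 7 members, where 11.4% of genes were called and 3.37% lower. Under scaling by total counts the Igfbp6 call against CCl4 and against corn oil was narrowly lost (-0.97 in both), and with it the only member called against CCl4.

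The CCl4 library could be set against other CCl4 material, since one deposited comparison table gives a CCl4 column whose total was 2.97 times that of the CCl4 library. In that pooled column, whose source samples the table does not name, no gene was lower than in the library by more than 0.99 counts, so the library was treated as contained in it and subtracted. Igfbp1 departed most. Of its 25326 pooled counts the CCl4 library held 14.8% (14.3% to 15.2%), while it held 33.6% of all pooled counts. In TMM-scaled CPM, Igfbp1 was at 192.1 in the library, at 531 in the remaining pooled counts and at 109 in CCl4 plus JT003. The library was 2.76-fold below the remainder in Igfbp1 (-1.47, -1.52 to -1.42), a larger ratio than in any toxin model comparison of Igfbp1 that used the CCl4 library. Igfbp2 went the other way, at 1225 CPM in the library and 719.6 in the remainder (0.77, 0.74 to 0.79). Igfbp4 differed least (-0.05). Of the 7 members Igfbp1 was the only one called, while 5.37% of 14545 genes were called and 4.71% were lower.

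With the remaining pooled counts in place of the CCl4 library, Igfbp1 was 1.90 on the log2 scale above corn oil and -2.28 in CCl4 plus JT003 over CCl4, both then past the call. The Igfbp6 call in CCl4 plus JT003 over CCl4 was lost (-0.64). Igfbp2 turned direction in both comparisons, to -0.64 against corn oil and 0.70 with JT003. Igfbp5 stayed lower in CCl4 than in corn oil (-1.14) and lower with JT003 (-0.91). Values for Igfbp1 and Igfbp2 in the toxin model thus depended on which CCl4 reads were used.

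**Figure D3:**
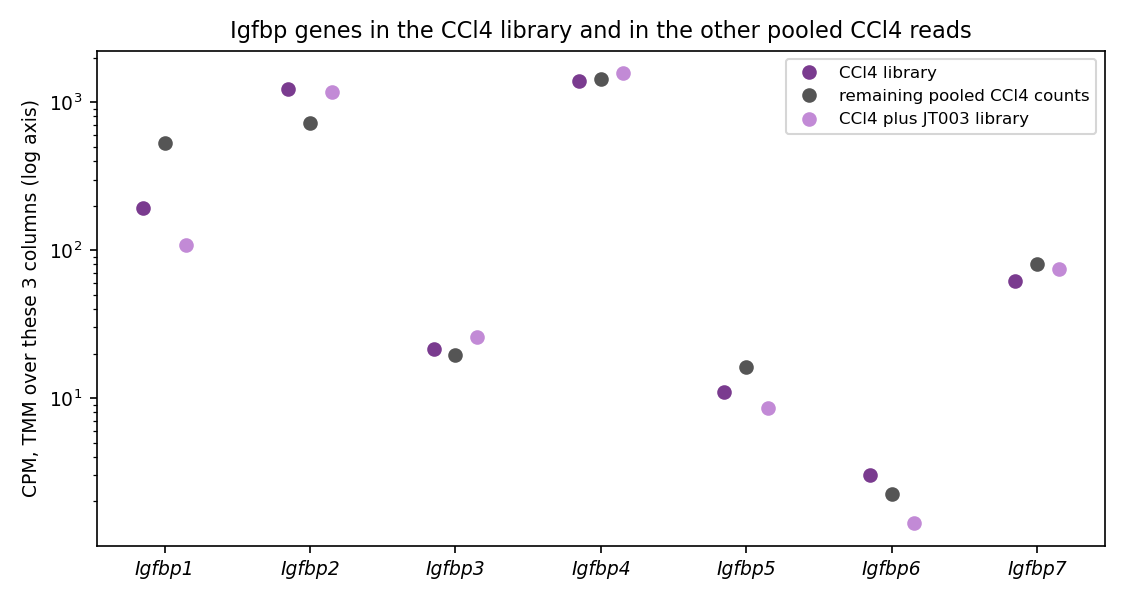
TMM-scaled CPM (log axis) of each Igfbp gene in the CCl4 library, in the remaining pooled CCl4 counts after that library was subtracted, and in the CCl4 plus JT003 library. Igfbp1 is at 192.1, 531 and 109 CPM in that order and Igfbp2 at 1225, 719.6 and 1169, while Igfbp4 lies close together in all of them.

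The SD and corn oil libraries, both labelled as controls, also differed in members of the family. Igfbp5 was 10.5-fold higher in corn oil than in SD (58 and 567 counts, 3.39, 3.05 to 3.86) and Igfbp6 was 8.06-fold higher (6 and 57 counts, 3.01, 2.19 to 4.90). Igfbp1 was 2.11-fold lower in corn oil (5316 and 2266 counts, -1.08, -1.15 to -1.01). The Igfbp5 ratio between the controls was larger than in any comparison within a model. Of 7 members 3 were called between the controls, where 11.1% of genes were called, 5.12% higher and 5.93% lower in corn oil. The remaining members differed by 0.56 (Igfbp3), 0.32 (Igfbp4), 0.17 (Igfbp2) and 0.03 (Igfbp7). Diet, vehicle, injection, length of treatment (16 weeks of diet against 6 weeks of injections), age at collection and library cannot be told apart in this contrast.

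Igfbp5 and Igfbp6 were lowest in SD and HFD and higher in the 4 libraries of mice for which the methods give injections into the peritoneum. In the diet model, injection and JT003 cannot be told apart, and a vehicle injection of SD and HFD mice is not stated. Markers of mesothelium, the cell layer that covers the liver surface, were read beside them. Msln (mesothelin) counts were 6 for SD, 3 for HFD, 36 for HFD plus JT003, 118 for corn oil, 108 for CCl4 and 38 for CCl4 plus JT003. Upk3b (uroplakin 3b) had 3, 3, 19, 76, 89 and 35 counts in the same order. Both markers were thus lowest in the libraries where Igfbp5 and Igfbp6 were lowest. Msln was highest in corn oil, as Igfbp5 was, whereas Upk3b was highest in CCl4. Of the 5 mesothelial markers, Gpm6a had 19 and 24 counts in SD and HFD and 33 to 81 in the others. Wt1 had 15 to 35 counts in all 6 libraries. Krt14 was at 0 in the 3 diet libraries and had 1 to 9 counts in the toxin model. The summed FPKM of the 5 was 0.76 in SD, 0.86 in HFD, 2.14 in HFD plus JT003, 6.65 with corn oil, 6.62 with CCl4 and 3.25 with CCl4 plus JT003. In HFD plus JT003 over HFD 2 of the 4 testable markers were called higher (median 1.23), and in CCl4 plus JT003 over CCl4 2 of 4 were called lower (median -0.91), the directions of Igfbp6. In CCl4 over corn oil, where Igfbp5 was called lower (-1.69), none of the 4 testable markers was called (median -0.23). Krt19, a keratin of bile duct and mesothelium, had 10, 7, 39, 52, 93 and 74 counts, and the duct list summed to 16.29, 26.45, 17.08, 27.42, 105.7 and 107.3 FPKM, highest in the CCl4 libraries where Igfbp5 was not. The part of injection or of these cells in the Igfbp5 and Igfbp6 values was not tested.

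**Figure D4:**
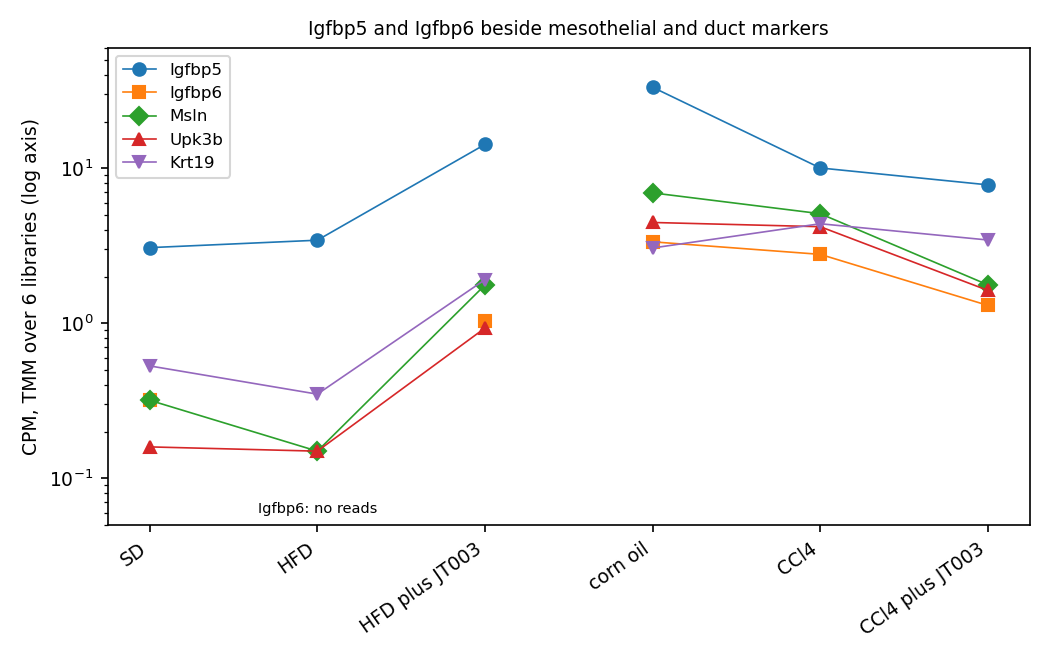
CPM scaled by TMM over the 6 libraries (log axis) of Igfbp5, Igfbp6, the mesothelial markers Msln and Upk3b and the duct keratin Krt19, with lines joining libraries of one model. All 5 genes are at their lowest in SD or HFD, and Igfbp5 and Msln are highest in corn oil (33.4 and 6.94 CPM).

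Markers of fibrogenic cells were set beside Igfbp5, and whether the directions were shared differed between comparisons. The 8 myofibroblast genes summed to 11.32 FPKM in SD, 36.57 in HFD, 16.65 in HFD plus JT003, 19 with corn oil, 75.12 with CCl4 and 35.92 with CCl4 plus JT003. That list was higher in HFD than in SD for 5 of 8 genes and higher in CCl4 than in corn oil for 5 of 8, with medians of 1.76 and 1.22. Its genes include Col1a1, which encodes a chain of type I collagen (log2 ratios 2.23 and 3.13). In the same comparisons Igfbp5 was at 0.15 and -1.69. With JT003, 5 of 8 were lower in HFD, where Igfbp5 was higher (2.02), and 4 of 8 lower in CCl4, where Igfbp5 was at -0.35. In corn oil over SD 4 of 8 were higher (median 0.95), as Igfbp5 was (3.39). Acta2, the smooth muscle actin of the list, was instead highest in corn oil, as Igfbp5 was, with 165 counts. It had 31 in SD, 35 in HFD, 14 in HFD plus JT003, 108 in CCl4 and 45 in CCl4 plus JT003. Acta2 was thus lowest in HFD plus JT003, where Igfbp5 was higher than in HFD. The part of these cells in the Igfbp5 values was not tested.

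Igfbp7, which is made by endothelial and stellate cells, was read beside markers of both. It was at 60.8, 81.9, 66.9, 62.2, 56.8 and 67.6 CPM in SD, HFD, HFD plus JT003, corn oil, CCl4 and CCl4 plus JT003, a 1.44-fold range. The 8 sinusoidal endothelial markers summed to 91.82, 99.35, 123.2, 56.18, 38.69 and 58.18 FPKM, and the 8 quiescent stellate markers to 102.1, 123.2, 128.1, 79.63, 61.21 and 71.81 FPKM. The endothelial sum was lowest in CCl4. The stellate sum was carried by Ecm1 (31.28 to 73.74 FPKM), and without it was lowest in corn oil (23.01 FPKM against 29.93 in CCl4), with a list median of 0.40 in CCl4 over corn oil. Both sums spread more widely than Igfbp7, whose lowest value was in CCl4 by these CPM and in corn oil by FPKM (49.1). In the RefSeq table Igfbp7 overlaps Polr2b, which encodes an RNA polymerase II subunit and had 395 to 1166 counts. Whether counting used strand is not given in the sources used here, so reads of the overlapping stretch could not be assigned with certainty. Polr2b was highest in HFD plus JT003 and Igfbp7 in HFD.

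Genes with the most similar patterns were sought for each member over the 6 libraries, among 9376 genes with a mean of at least 100 counts. Likeness was the root mean square distance between centred log2 CPM values, where 0 is an identical pattern. Nearest to Igfbp1 was Fgf21, a hepatokine of the fasted liver, at a distance of 0.252. Fgf21 counts were 691, 73 and 205 for SD, HFD and HFD plus JT003, then 215, 460 and 182 across the toxin model in the order control, CCl4, CCl4 plus JT003. Like Igfbp1, Fgf21 was highest in SD, lowest in HFD, and higher in CCl4 than in both other toxin model libraries. Next came Hunk, a protein kinase gene, at 0.299 and Crat, the carnitine acetyltransferase gene, at 0.334. Crat had 7060 counts in SD and 1546 in HFD.

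For Igfbp2 the nearest were G0s2, which encodes an inhibitor of adipose triglyceride lipase (0.217), E130012A19Rik (0.218) and AI507597 (0.269). G0s2 counts were 4850, 1310 and 2089 in the diet model and 5761, 5656 and 5208 in the toxin model, each in the order control, injury, injury plus JT003. It shared with Igfbp2 a low HFD value and similar levels in the toxin model libraries. Among the members themselves Igfbp1 and Igfbp2 were 0.517 apart. The flatter members had closer neighbours, with Ncoa4 at 0.058 for Igfbp4, B230354K17Rik at 0.036 for Igfbp7 and Nfkbib at 0.083 for Igfbp3. Among the 9376 genes searched, Igfbp5 and Igfbp6 had none within 0.6, the nearest being Cyp3a25 at 0.67 and Slpi at 0.737. Genes under the count minimum, among them Msln and Upk3b, were left out of the search. Whether any of those lay nearer to Igfbp5 or Igfbp6 was not tested. Distances grow with the spread of a member, so they compare genes for 1 member and not members with each other.

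**Figure D5:**
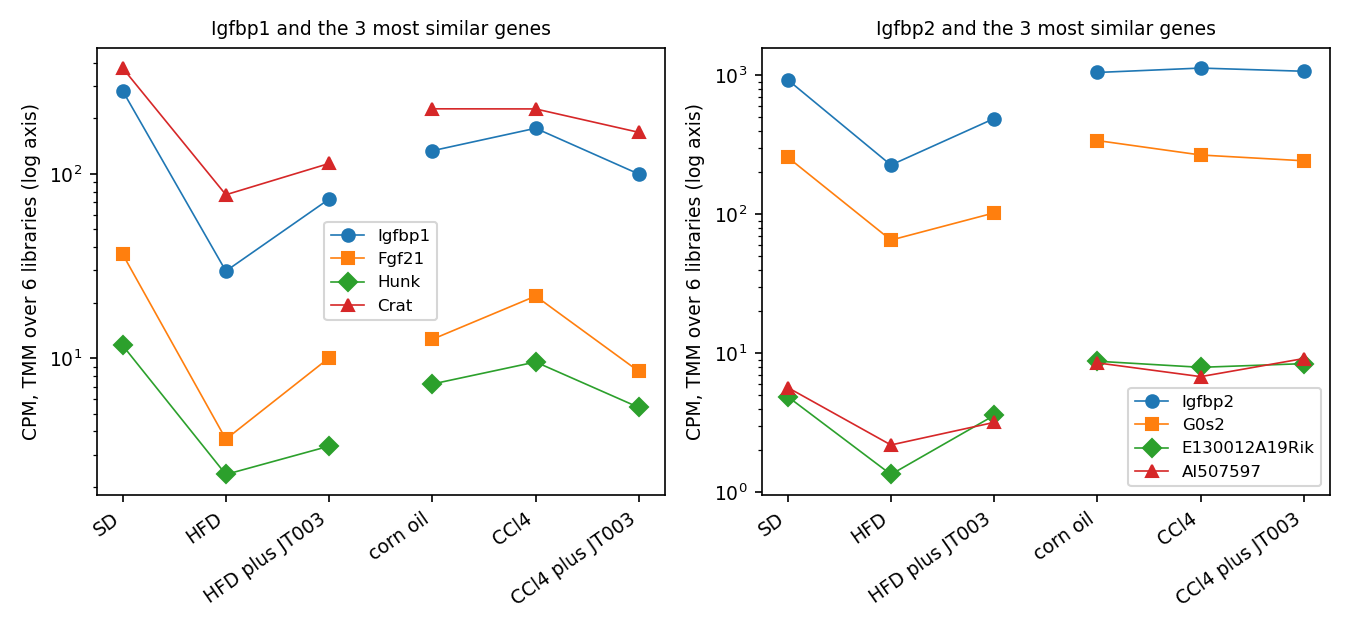
CPM scaled by TMM over the 6 libraries (log axis) of Igfbp1 and of Igfbp2, each with the 3 genes of the most similar pattern, and lines joining libraries of one model. Igfbp1, Fgf21, Hunk and Crat are lowest in HFD, and Igfbp2 and its nearest genes are lowest in HFD with higher values in all 3 toxin model libraries.

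Other genes of insulin and fasting control, chosen from general knowledge as a list of 11, were read beside Igfbp1 and Igfbp2. In HFD over SD, 1 of 11 was called higher and 3 lower, with a median of 0.17 against 0 over all genes. The higher gene was Srebf1, a lipogenic regulator, with 664 counts in SD and 2008 in HFD. Pdk4, the pyruvate dehydrogenase kinase of fasting, had 2207 and 128 counts (-4.18), G6pc (glucose-6-phosphatase) was at -2.20 and Irs2 at -1.44. Pck1, the gluconeogenic carboxykinase gene, had 67760 counts in SD and 42099 in HFD and was not called. With JT003 in HFD, G6pc was the only gene of the list called (1.53). In CCl4 plus JT003 over CCl4, G6pc was again the only call (-1.18), the direction of Igfbp1 there. In CCl4 over corn oil Pdk4 was the only call (2.05).

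Of 10 ATF4 target and regulator genes, a stress pathway known to include Igfbp1 and Fgf21, 5 were called higher and 2 lower in HFD than in SD. Ddit3 (2.01) and Atf3 (1.54) were higher, whereas Asns (-3.61) and Fgf21 (-3.30) were lower with Igfbp1. With JT003 in HFD, Fgf21 was called higher (1.44) and Ddit3 (-1.70) and Ddit4 (-1.39) lower. In CCl4 plus JT003 over CCl4, Chac1 was called higher (1.77) and Asns (-1.97) and Fgf21 (-1.34) lower. The genes of this list thus went in different directions, and within it Fgf21 had the direction of Igfbp1 in each of these comparisons. Fgf21 was already the nearest gene to Igfbp1 over these same libraries, so its shared direction is no separate evidence. Against the remaining pooled CCl4 counts, 3 of the 10 genes were called lower in the CCl4 library (median -0.33), where 4.71% of all genes were lower. List calls against that library may therefore depend on which CCl4 reads are used.

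The ligands that the family binds, their receptors and the acid labile subunit were read next. Igf1 counts were 8518, 8400 and 10656 across SD, HFD and HFD plus JT003, and 11028, 7551 and 13281 across corn oil, CCl4 and CCl4 plus JT003. Igfals had 1391, 2159, 2617, 1862, 1302 and 2413 counts in the same order. Both were lowest in the CCl4 library. Igf2 was at 5 to 13 counts and Igf1r at 52 to 110, so few reads stood behind their ratios. None of the 6 genes of the ligand, receptor and complex list (Igf1, Igf2, Igf1r, Igf2r, Insr and Igfals) was called in any of the comparisons within the models. Their medians were -0.07 in HFD over SD, 0.22 with JT003 in HFD, -0.12 in CCl4 over corn oil and 0.52 with JT003 in CCl4.

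In the growth hormone axis, the main driver of hepatic Igf1, 1 of 7 genes was called in HFD over SD. This was Ghr, the receptor gene, with 4315 and 9856 counts (1.10). None was called with JT003 in HFD. In CCl4 over corn oil the feedback genes Cish (-1.61) and Socs2 (-1.14) were lower, and with JT003 in CCl4 they were higher (1.73 and 2.14) while Stat5a was lower (-1.04). Socs2 counts were 533, 295 and 1314 in corn oil, CCl4 and CCl4 plus JT003. Against the remaining pooled CCl4 counts, 1 of the 7 genes was called higher in the CCl4 library, where 5.37% of all genes were called.

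Proteases that cut IGFBPs, and their inhibitors, were mostly near the detection limit. Of 11 genes, 4 had enough counts in the diet comparisons and none was called there. Pappa, the pappalysin gene whose product cuts IGFBP4, had 0 to 6 counts in every library, and a count of 0 allows up to 3. Adam9, a metalloprotease gene, was the most abundant in counts, with 688 to 1633. In CCl4 over corn oil Adam12 (2 and 13 counts) and Mmp7 (1.68, 10 and 44 counts) were called higher and Mmp3 (12 and 0 counts) lower. Adam28 was the only call with JT003 in CCl4 (1.02, 21 and 45 counts). Against the remaining pooled CCl4 counts, 2 of 8 testable genes were called lower in the CCl4 library, where 4.71% of all genes were lower.

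Other secreted proteins that carry an IGFBP-type domain were read as a list of 13, of which 12 were listed. Esm1, the endothelial endocan gene, had 11, 49 and 6 counts across SD, HFD and HFD plus JT003, called higher in HFD (1.89) and lower with JT003 (-2.69). Cyr61 (486 and 203 counts, -1.27) and Ctgf (286 and 107 counts, -1.42), matricellular genes of the CCN family, were also lower in HFD plus JT003 than in HFD. These 3 of 8 testable genes went opposite to Igfbp1, Igfbp2, Igfbp5 and Igfbp6 in that comparison. Igfbp3 (-0.97) and Igfbp7 (-0.29), neither of them called, were lower there as these genes were. In CCl4 over corn oil 3 of 11 were called lower, on at most 25 counts each, and none was called in CCl4 plus JT003 over CCl4. Against the remaining pooled CCl4 counts, 1 of 10 testable genes was called lower in the CCl4 library, where 4.71% of all genes were lower.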

How the data were processed

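Liver RNA-seq of 6 libraries, 1 per condition, was used. The deposited tables list, for every gene, its expected count and its FPKM. The submitters' processing notes name HISAT, Bowtie2, RSEM and the mouse build mm9, and versions and settings are not given in the sources used here. RSEM, named there, estimates expected counts and shares ambiguous reads among genes, so 69.9% to 70.9% of values were whole as written in the tables. Transcript lengths enter FPKM only, and that of Igfbp2 varied from 1101 to 1212 bases between libraries. One table of the authors' comparisons also holds a pooled CCl4 expected count column, which was used, while the fold changes and p-values of these tables were not.

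Expected counts were rounded for counting intervals and genes not listed were set to 0. Scaling was by TMM (edgeR 4.0.16) over the 3 libraries of a model, over 6 libraries for corn oil against SD and for patterns, and over 3 columns for the pooled comparison. No count model was fitted. Log2 ratios used a prior count of 2, and 95% Clopper-Pearson intervals came from scipy 1.17.1. A call required a 2-fold ratio and 10 counts in the higher library. Totals of 19374236 to 20184557 make the precision of a gene depend on its own count, and reads carry no molecular identifiers here, so intervals and floors cover counting error only. The calculation was checked on simulated counts that held counting error only, so the check does not cover differences between mice or libraries.

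The members, the gene lists and the choice of tests were made with earlier results of these data known. The text names the 7 members, genes of the lists, genome neighbours, and the 3 genes with the closest pattern to each member whose mean count was at least 20. One gene of the insulin and fasting list is not reported here and was left out of its counts. Gene IDs matched RefSeq names for 18403 of 18444 genes. Alternatives were DESeq2 1.42.0 size factors, total counts, FPKM, another prior, other count minimums and the pooled CCl4 counts, whose use for counts of calls was chosen after seeing the data.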

Additional observations from a re-analysis of the deposited data

Results flagged for a closer look

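Of the 14 pairs of log2 ratios that set the diet model beside the toxin model, 12 had opposite signs, 10 of them with both counting intervals off 0. In none was the difference tested, since each ratio rests on 1 library a side. The share of all genes with opposite signs is not given here, so nothing is read from these numbers. Injury and JT003 ratios of a model share the HFD or the CCl4 library on opposite sides, so the pairs are not separate pieces of evidence. For injury over control, HFD and CCl4 were opposite in 4 members by that stricter count (Igfbp5 and Igfbp7 had an interval that included 0). Igfbp1 was at -3.24 in HFD over SD and 0.44 in CCl4 over corn oil, Igfbp2 at -2.04 and 0.14, Igfbp3 at 0.41 and -0.36, and Igfbp4 at 0.12 and -0.61. With pooled or remaining pooled CCl4 counts Igfbp2 was at -0.34 or -0.64 over corn oil, no longer opposite.

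For JT003 over injury, 6 members were opposite, again with no test. Igfbp1 was at 1.30 in HFD and -0.82 in CCl4, Igfbp2 at 1.11 and -0.067, Igfbp3 at -0.97 and 0.28, Igfbp5 at 2.02 and -0.35, and Igfbp7 at -0.29 and 0.26. Igfbp6 was at 2.78 or more in HFD, the ratio against a floor of 3 counts with the error of the 21 counts left out (counting interval from 2.36), and at -1.03 in CCl4. The signs of Igfbp2 and Igfbp7 in CCl4 turned when pooled CCl4 counts took the place of the CCl4 library.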

How the results depend on the processing

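Each condition had 1 library, so no replicate could be left out. No paired analysis was possible because the groups hold 1 library each and the labels carry no replicate numbers. Under DESeq2 size factors no log2 ratio of a member moved by more than 0.02. Total counts shifted the median of all genes by 0.13 in HFD over SD and in HFD plus JT003 over SD, 0.24 in CCl4 over corn oil and 0.32 in CCl4 plus JT003 over corn oil. The share of calls that were higher then went from 58.9% to 69.1%, 59.0% to 70.1%, 64.1% to 78.7% and 70.4% to 86.8% in that order. With total counts, members called went from 1 to 0 in CCl4 plus JT003 over CCl4 and from 2 to 1 in CCl4 plus JT003 over corn oil. A minimum of 100 counts gave the same numbers, 0 and 1, because Igfbp6 no longer qualified, which also took HFD plus JT003 from 4 to 3 over HFD and from 3 to 2 over SD. Genes called were then 1.94% in HFD plus JT003 over HFD and 7.89% in HFD plus JT003 over SD. They were 8.65% in CCl4 over corn oil, 5.41% in CCl4 plus JT003 over CCl4 and 5.8% in CCl4 plus JT003 over corn oil. With no minimum, members called went from 2 to 3 in HFD over SD, where 11.8% of genes were called. In HFD plus JT003 over HFD 7.51% of genes were then called. With pooled or with remaining pooled CCl4 counts, 2 members were called in CCl4 over corn oil, against 1, and in CCl4 plus JT003 over CCl4 Igfbp1 was called in place of Igfbp6 (-0.80 and -0.64). The sign turned for 3 of 42 ratios with total counts, for 4 of 42 with FPKM and for 4 of 14 with either pooled column, and in no ratio that was called. Igfbp6, with 0 to 59 counts, is limited by depth. In CPM, which takes no account of length, Igfbp4 held 82.8% of the family in HFD, 75.0% in HFD plus JT003 and 47.9% to 60.5% elsewhere, above Igfbp2 in all 6 libraries.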
